A study of Mus musculus with 28 samples.

Results

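The 9 genes described here, Pde10a, Rgs9, Penk, Drd1, Drd2, Adora2a, Ppp1r1b, Scn4b and Adcy5, are widely used as marks of striatal projection neurons. They were picked by name, as the rows of both deposited count tables that carry 1 of these symbols, from the 41549 genes counted, and all 9 were found. They were picked because earlier results of these data had shown them at a higher level in one sorted fraction, so their difference between the fractions is given below as a description without a test. The RNA came from nuclei of motor cortex dissected from 7 mice (animals 17 to 23). Adeno-associated virus vectors for Cas9, a nuclease that a guide RNA directs to its target, had been injected into both hemispheres: AAV-Cas9-miR-124-empty on the left and AAV-Cas9-miR-124-g4 on the right, called empty and g4 below. Nuclei of each side were sorted by an antibody to the HA tag on Cas9, which gave 4 groups of 7 libraries: empty HA-negative, g4 HA-negative, empty HA-positive and g4 HA-positive. All 28 libraries therefore came from tissue that had received a Cas9 vector, and no uninjected animal was among them. Vector and hemisphere coincided in every animal and cannot be told apart. The labels name no strain, age, time after injection or promoter for Cas9.

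Striatal projection neurons are the GABA-releasing output cells of the striatum, the large nucleus that lies beneath the cortex and the white matter. They fall into a direct-pathway class, which carries the dopamine receptor Drd1, and an indirect-pathway class, which carries the dopamine receptor Drd2, the adenosine receptor Adora2a and the opioid precursor Penk. In these cells dopamine and adenosine act on cyclic AMP, which the cyclase Adcy5 makes and the phosphodiesterase Pde10a breaks down. Ppp1r1b is a phosphoprotein that relays this signal, Rgs9 shortens signalling by the G proteins below the receptors, and Scn4b is an auxiliary subunit of sodium channels. None of the 9 is limited to the striatum: Penk also occurs in cortical interneurons, and Drd1 and Ppp1r1b in deep layers of the cortex.

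The genes lie at 9 separate loci of the mouse genome (build GRCm38, GENCODE positions of whole genes, introns included). The dopamine receptor gene Drd1 lies at chr13:54051183-54055705 on the minus strand and Drd2 at chr9:49340627-49408177 on the plus strand. Adora2a lies at chr10:75316877-75334784 (plus), and Penk at chr4:4133531-4138819 (minus). Adcy5 lies at chr16:35154877-35305738 (plus), Pde10a at chr17:8525372-8986648 (plus), Ppp1r1b at chr11:98348404-98357796 (plus), Rgs9 at chr11:109225355-109298129 (minus) and Scn4b at chr9:45138395-45154152 (plus). Other annotated genes overlap 4 of them: 3 at Pde10a, 2 at Adcy5, and 1 each at Penk and Ppp1r1b. Whether the counting used strand is not stated in the labels, so reads of those genes and of their overlapping neighbours cannot be separated with certainty.

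RefSeq promoter windows (build GRCm38.p6, 250 bases before to 50 after a transcript start) were present for 6 of the 9 genes, and those of both dopamine receptors and of Adcy5 are shown because these genes stand for the receptor and cyclase steps described below. Capitals mark the GC box GGGCGG or its reverse CCGCCC, the core of the sites of Sp-family factors.
Drd1, chr13:54055609-54055908, minus strand: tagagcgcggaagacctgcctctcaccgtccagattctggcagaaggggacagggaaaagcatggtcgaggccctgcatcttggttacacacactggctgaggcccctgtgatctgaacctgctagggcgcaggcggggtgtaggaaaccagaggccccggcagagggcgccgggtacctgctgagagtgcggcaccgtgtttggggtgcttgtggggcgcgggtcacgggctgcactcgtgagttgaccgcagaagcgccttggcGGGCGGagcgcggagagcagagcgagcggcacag
Drd2, chr9:49340153-49340452, plus strand: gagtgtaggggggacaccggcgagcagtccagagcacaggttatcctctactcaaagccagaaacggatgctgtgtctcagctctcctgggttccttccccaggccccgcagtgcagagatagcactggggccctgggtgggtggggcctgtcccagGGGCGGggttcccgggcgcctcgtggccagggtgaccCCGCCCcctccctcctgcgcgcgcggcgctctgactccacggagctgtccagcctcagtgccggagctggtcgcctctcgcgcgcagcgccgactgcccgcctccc
Adcy5, chr16:35154614-35154913, plus strand: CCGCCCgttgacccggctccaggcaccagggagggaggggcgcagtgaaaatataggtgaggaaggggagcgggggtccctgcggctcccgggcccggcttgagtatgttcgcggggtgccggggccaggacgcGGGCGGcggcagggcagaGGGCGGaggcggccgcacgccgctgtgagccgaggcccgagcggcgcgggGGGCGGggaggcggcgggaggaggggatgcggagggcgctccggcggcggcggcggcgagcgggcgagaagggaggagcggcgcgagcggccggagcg
The GC box occurred in the windows of 5 of the 6 genes (Pde10a, Rgs9, Drd1, Drd2 and Adcy5, not Scn4b), and in 35.7% of the 32851 windows of the whole table. For each gene the window nearest its GENCODE start was counted. That of Pde10a lies 276373 bases from this start, inside the gene. The cyclic AMP response half-site TGACG (reverse CGTCA) was in 0 of the 6 and in 20.8% of all windows, and the full palindrome TGACGTCA, which contains it, was in 0 of the 6 and 1.79%. A forkhead motif, GTAAACA (reverse TGTTTAC), was in 0 of the 6 and 3.65%, and TATAAA (reverse TTTATA) was found in Rgs9 alone of the 6 and in 13.6% of all windows. These are matches of letters in 1 window per start. They say nothing of the binding of any factor.

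The libraries held 248612 to 902944 counts each, over 8687 to 13668 detected genes. Levels below are CPM, counts scaled to the size of the whole library with TMM factors, and levels of different genes are not compared because CPM does not account for gene length. Cortical identity was present in the empty HA-negative libraries: Slc17a7, the vesicular glutamate transporter of cortical excitatory neurons, had a mean of 345.1 CPM, and the 12 excitatory markers together ran from 741.0 to 1099.0 CPM. Of 25 further genes listed for striatal projection neurons, 0 were at 0 counts throughout the empty HA-negative group, and their summed level there ran from 1789.8 to 3218.8 CPM. The 4 markers of another neuron type of the striatum, the cholinergic interneuron, were near 0: their sum had a median of 0 and a highest value of 19.1 CPM in that group, and Lhx8 was at 0 counts. In bulk libraries such as these, fewer nuclei of a type and less RNA per nucleus cannot be told apart. The g4 HA-positive library labelled as animal 19 stood apart. It held 655 CPM of Xist and 48.7 CPM of 4 Y-linked genes (Ddx3y, Uty, Kdm5d and Eif2s3y), while the other 15 libraries of animals 17 to 20 held no Xist and 93.5 to 206 CPM of those genes. By these genes its RNA was not that of animal 19 alone, since the other libraries of that animal held no Xist. How these transcripts came together cannot be settled here, so comparisons of this library with animal 19 rest on its label. The values that it moves most are given with and without it.

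In HA-negative nuclei the direct-pathway receptor Drd1 ran from 46.4 to 112.9 CPM with a median of 72.0 in the empty group, and from 16.9 to 101.8 with a median of 62.3 in the g4 group. The indirect-pathway receptor Drd2 ran from 9.64 to 63.3 CPM (median 15.7) and from 0 to 54.9 (median 29.7). Adora2a, the adenosine receptor that works against Drd2 in the same cells, ran from 0 to 48.0 CPM (median 19.3) and from 0 to 65.7 (median 18.2). Both vectors overlapped over most of their range for all 3 receptors. Receptors of both output pathways were found in the same libraries, with 3 exceptions: Drd2 and Adora2a were at 0 counts in the g4 library of animal 18, and Adora2a also in the empty library of animal 20. Penk, whose product is cut into enkephalins, ran from 96.4 to 415.3 CPM (median 144.6) with the empty vector and from 11.6 to 210.6 (median 194.1) with g4.

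The enzymes of cyclic AMP turnover were detected in every library. Adcy5, the main adenylyl cyclase of the striatum, ran from 154.3 to 446.5 CPM (median 298.9) in empty HA-negative nuclei and from 50.8 to 321.3 (median 293.6) in g4 HA-negative nuclei. Pde10a ran from 294.1 to 945.7 CPM (median 601.4) and from 135.5 to 747.4 (median 612.0), with means of 578.0 ± 220.7 and 470.6 ± 249.6 (SD, n = 7 each). For both genes the medians of the vectors lay close together, and the lowest g4 value lay below the lowest empty value. Ppp1r1b, the phosphoprotein that inhibits protein phosphatase 1 when protein kinase A acts on it, ran from 16.4 to 121.2 CPM (median 61.3) and from 21.3 to 86.2 (median 63.8). Rgs9 ran from 51.1 to 213.6 CPM (median 90.0) and from 19.4 to 154.2 (median 139.3). The sodium channel subunit Scn4b, known for its part in the resurgent current of striatal neurons, ran from 96.4 to 290.4 CPM (median 145.7) and from 13.6 to 200.2 (median 126.0). For 7 of the 9 genes (not Adora2a and Ppp1r1b) the lowest g4 HA-negative library lay below the lowest empty one, as the plot of each gene by library shows.

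**Figure D1:**
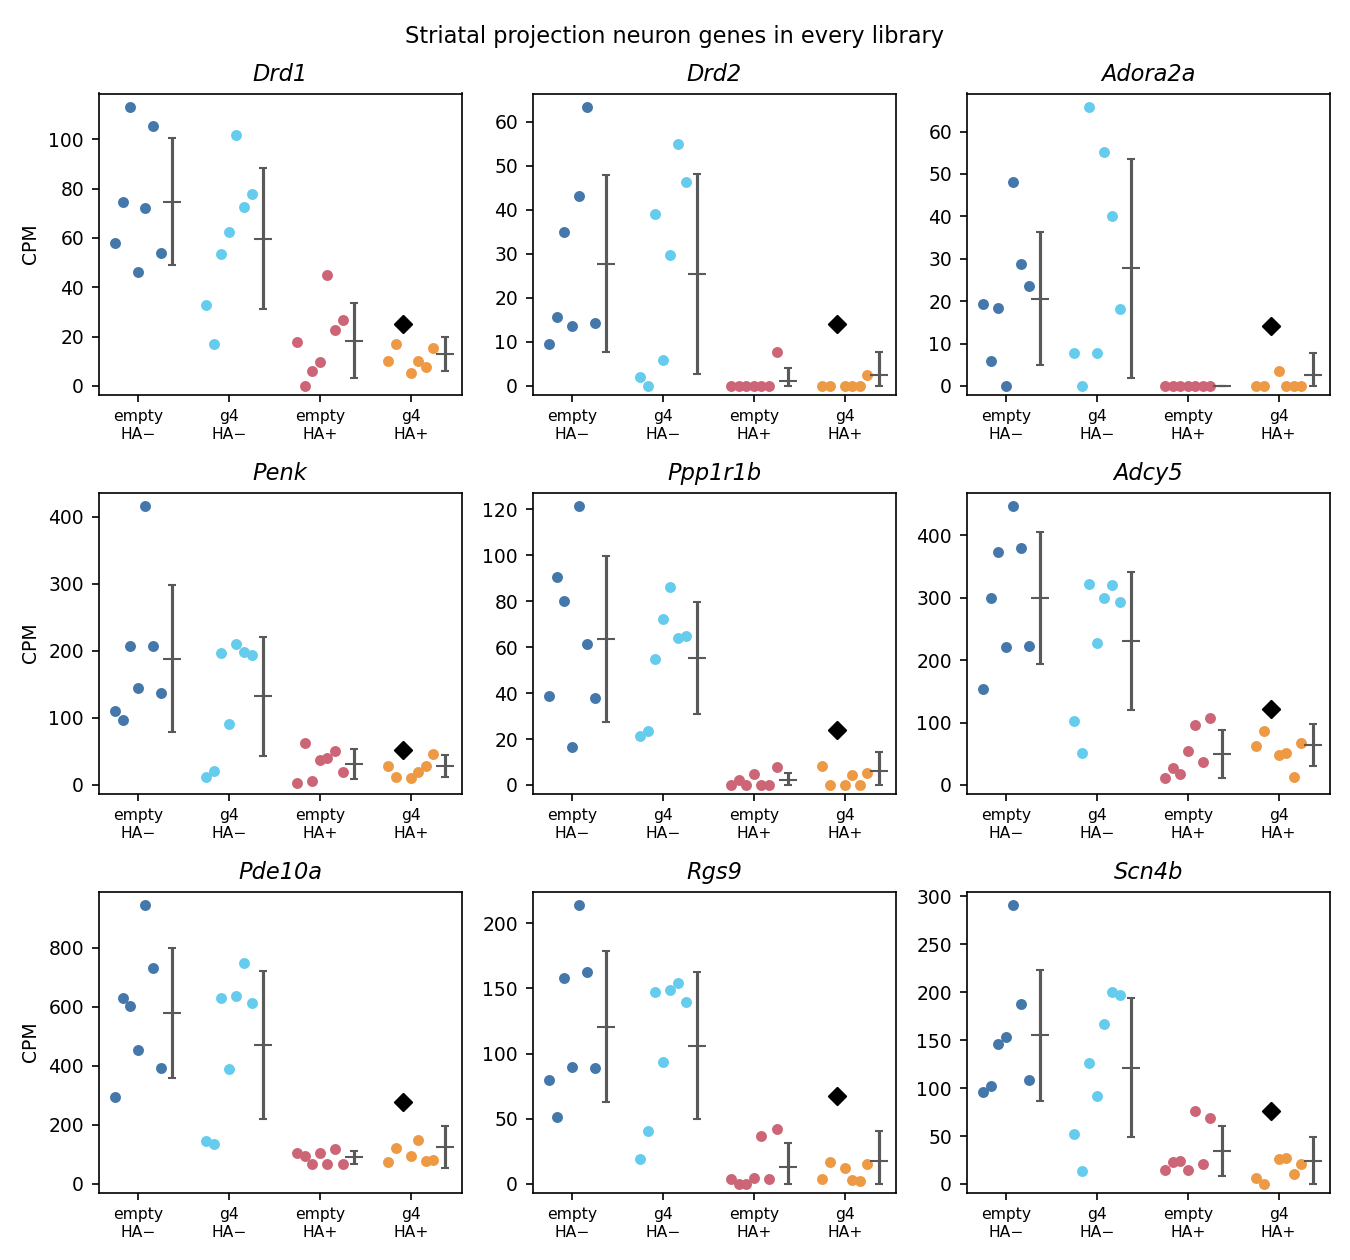
Level of each of the 9 genes in CPM (vertical axis, starting at 0) in the 4 groups. Each point is 1 of 7 libraries per group, from left to right animals 17 to 23; bars give mean ± SD with the lower end cut at 0, and the black diamond is the g4 HA-positive library of animal 19. HA-negative libraries are high and scattered (Pde10a 294.1 to 945.7 CPM with the empty vector), and HA-positive ones are low (67.6 to 119.3).

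In HA-positive nuclei the median level of all 9 genes was lower, and 3 of them (Adora2a, Drd2 and Ppp1r1b) had a median of 0 with the empty vector. With the empty vector Adora2a had 0 counts in all 7 libraries. Taking 3 counts over the group as the floor put its level at least 22.4-fold below that of the HA-negative group. The exact 95% interval, the measure used for the next genes, was looser, at 0 to 5.61% of the HA-negative level. Drd2 had 2 counts over the group, both in 1 library, which is 2.43% of the HA-negative level (exact 95% interval 0.291 to 8.99%). The exact intervals here and below are binomial ones for the split of counts between the 2 fractions, turned into a ratio of levels. Ppp1r1b had 6 counts over the group, 3.09% of the HA-negative level (1.12 to 6.82%). Rgs9 had 30, or 8.32% (5.55 to 12.0%), with levels from 0 to 42.2 CPM (median 4.11). These intervals cover counting error over pooled libraries and no difference between animals. The other 5 genes kept more of their level, from 15.3% for Pde10a (13.4 to 17.4%) to 22.5% for Drd1 (16.1 to 30.7%).

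By library, Pde10a in empty HA-positive nuclei ran from 67.6 to 119.3 CPM with a median of 94.8, and all 7 libraries lay below the lowest HA-negative one. The same held for Drd1 (0 to 45.1, median 17.9), although its highest HA-positive library was only just below its lowest HA-negative library at 46.4. Penk ran from 3.59 to 63.2 (median 37.5), Adcy5 from 10.8 to 107.5 (median 37.0) and Scn4b from 14.3 to 76.2 (median 23.2). With the empty vector, 8 of the 9 genes were lower in every HA-positive library than in any HA-negative one, where 1.84% of the 5538 genes tested were. The 8 include Drd2 and Ppp1r1b, which had too few counts to be among those 5538 genes; of the 6 that were among them, all 6 were wholly lower. Adora2a fell outside that count because 1 HA-negative library, that of animal 20, was also at 0. With DESeq2's size factors the count was 7, without Drd1. Since the genes were picked for this difference, nothing is read from the count. The log2 fold changes of the 6 genes with enough counts to be fitted were -2.66 ± 0.22 (SE) for Pde10a, -3.36 ± 0.63 for Rgs9, -2.60 ± 0.39 for Adcy5, -2.22 ± 0.36 for Scn4b and -2.05 ± 0.44 for Drd1, and that of Penk lay between them.

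With the g4 vector the groups overlapped for all 9 genes, so 0 of 9 lay wholly lower in HA-positive nuclei, where 0.718% of the 6264 genes tested did. Pde10a ran from 74.6 to 278.8 CPM (median 94.1) in g4 HA-positive nuclei, Adcy5 from 13.1 to 121.3 (median 62.5) and Drd1 from 5.23 to 25.1 (median 10.1). Both ends of the comparison contributed to the overlap. On the HA-positive side, the library of animal 19 was the highest of its group for all 9 genes. On the HA-negative side, the libraries of animals 17 and 18 were low. With that HA-positive library left out, 2 of 9 genes, Rgs9 and Ppp1r1b, lay wholly lower. Within animals as labelled, the direction was more uniform. Pde10a, Rgs9, Ppp1r1b and Scn4b were lower in HA-positive nuclei in 7 of 7 animals, and the other 5 genes in 6 of 7. The fitted log2 fold changes with g4, for the 7 genes with enough counts, ran from -2.94 ± 0.55 (Ppp1r1b) to -1.83 ± 0.44 (Adcy5). Without that library they ran from -4.09 (Ppp1r1b) to -2.11 (Adcy5), and Rgs9 went from -2.45 to -3.63.

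Added over the 9 genes, the level in empty HA-negative nuclei ran from 860.7 to 2595.9 CPM (median 1364.8) and in empty HA-positive nuclei from 120.5 to 361.0 (median 231.5). In g4 HA-negative nuclei it ran from 301.5 to 1852.3 (median 1633.2), with animal 18 at 301.5, animal 17 at 394.8 and the other 5 animals at 1042.0 or above. In g4 HA-positive nuclei it ran from 141.2 to 674.5 (median 252.5), and the highest was 264.2 without animal 19. The HA-positive level was 6.95 to 32.3% of the HA-negative level of the same animal with the empty vector. With g4 it was 7.62 to 19.2% in animals 20 to 23, but 49.1% in animal 17 and 83.7% in animal 18. It was 41.3% for the libraries labelled as animal 19. The high shares of animals 17 and 18 stand on low HA-negative levels and that of animal 19 on a high HA-positive level.

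**Figure D2:**
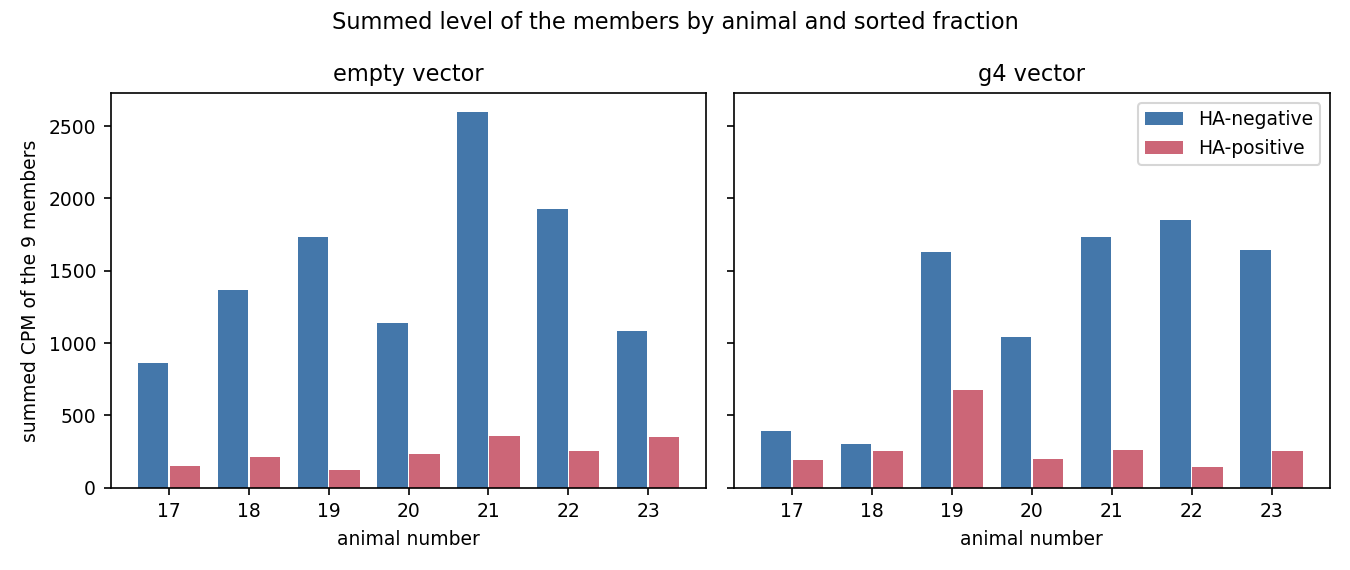
Summed CPM of the 9 genes (vertical axis, starting at 0) in the HA-negative and HA-positive library of each animal (horizontal axis), for the empty vector on the left and g4 on the right; each bar is 1 library. HA-negative bars are the taller of each pair, by least in g4 animal 18 (301.5 against 252.5 CPM).

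In the g4 HA-positive library labelled as animal 19, each of the 9 genes reached 21.6 to 60.7% of its level in the g4 HA-negative library with the same animal number. Of the 15 Adora2a counts and 14 Drd2 counts of the g4 HA-positive group, 13 each came from this library. Other markers moved with them there. The 5 oligodendrocyte markers summed to 1156.6 CPM, against a group median of 110.7 and a range of 1141.5 to 2099.0 in g4 HA-negative libraries, and the 4 microglia markers to 273.3 CPM against a median of 22.6. The 7 cortical interneuron markers were at 1107.4 CPM, the lowest of the group. The part of these in the levels of the 9 genes was not tested. Without this library the mean of Pde10a in g4 HA-positive nuclei was 99.8 ± 29.1 CPM (SD, n = 6), against 125.3 ± 72.7 (n = 7) with it.

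Other gene lists differed in direction between the sorted fractions. With the empty vector the 25 further striatal genes had 14 members with enough counts, of which 12 were lower in HA-positive nuclei. Their median log2 fold change was -1.57, beside 0.01 over every gene tested. The 2 higher ones were Cnr1, the cannabinoid receptor that cortical interneurons also carry, at 0.72, and Tac1 at 0.33. With g4, 11 of the 15 further striatal genes with enough counts were lower. The 4 higher ones were Tac1 (0.54), Cnr1 (0.43), Kcnip2 (0.38) and Pdyn (0.21). With the empty vector, 8 of the 9 cortical excitatory markers with enough counts were lower, with a median of -0.78. All 6 such interneuron markers were higher, with a median of 1.70. The 4 fitted oligodendrocyte and 4 fitted microglia markers were all lower, with medians of -6.07 and -5.67. These sizes rest partly on genes near the floor: in empty HA-positive libraries Cx3cr1 and P2ry12 had 0 counts, Cldn11 2 and Mal 4. The 30 fitted genes of the dopamine, adenosine and cyclic AMP pathway beyond the 9 were split. Of these, 18 were lower and 12 higher, with a median of -0.21. These counts are descriptions without a test, and a gene could pass the count filter through 1 fraction alone. The pathway list shares Gnal, Gng7, Pde1b and Drd3 with the further striatal list.

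Between animals, the 9 genes varied widely in HA-negative nuclei. The biological coefficient of variation, the spread between replicate libraries beyond counting error as edgeR estimates it within vector groups, had a median of 0.56 over the 9 genes (0.296 for Drd1 to 0.939 for Adora2a). The median over the 6262 genes tested was 0.3. The values of 8 of the 9 genes lay above the 95th percentile of those genes, and Drd1 lay at the 48.4th. In HA-positive nuclei the 3 genes with enough counts had values of 0.343 to 0.563, where the median of 5011 genes was 0.383 and 0 of the 3 lay above the 95th percentile.

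Most of the 9 genes varied together from animal to animal. Over the 7 animals, with the left and right HA-negative libraries averaged on the log2(CPM + 1) scale, Rgs9 followed Pde10a with Pearson's r = 0.984 (exact permutation, adjusted p = 0.000794) and Spearman's rho = 1.0 (adjusted p = 0.00159). Penk followed Pde10a with r = 0.974 and rho = 1.0 at the same adjusted exact p-values, and Adcy5 with r = 0.968 (exact permutation, adjusted p = 0.00265) and rho = 0.964 (0.00741). Both dopamine receptors did so as well. Drd1 had r = 0.927 and Drd2 r = 0.925 (exact permutation, adjusted p = 0.00508 each), with rho = 0.929 (0.00899) and 0.857 (0.0238). Ppp1r1b (r = 0.857) and Scn4b (r = 0.855) each had an adjusted exact p of 0.0159, and rho = 0.929 (0.00899) in both. Adora2a was the exception for r, at 0.662 (exact permutation, adjusted p = 0.107), while its rho was 0.857 (0.0238). All p-values are two-sided and adjusted over the 8 genes of the family. Without animals 17 and 18, the 2 farthest from the median of Pde10a, r ran from 0.869 to 0.983. The genes of 1 library share its depth and scaling, so these values are not independent of one another. The genes were also picked with earlier results of these same libraries known, so the p-values are given as a description only. The unadjusted p-values of r in this family ran from 0.000198 to 0.107, and those of rho from 0.000397 to 0.0238.

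The sides of the brain were compared in the same way. Between the left (empty) and right (g4) HA-negative libraries of the same animal, r was 0.729 for Penk (exact permutation p = 0.0589, adjusted p = 0.33) and 0.711 for Rgs9 (p = 0.0776, adjusted p = 0.33, exact permutation). Spearman's rho was 0.893 for both (exact permutation p = 0.0123, adjusted p = 0.0554). Drd2, Scn4b, Adora2a, Pde10a and Adcy5 had r from 0.406 to 0.67, and that of Pde10a was -0.0917 without animals 17 and 21. Drd1 had r = 0.000183 and Ppp1r1b r = -0.0477. None of the 9 passed after adjustment over the family, for r or rho, and 17 correlations over animals were computed in all. Xist was at 0 in animals 17 to 20, apart from 1 HA-positive library, and present in animals 21 to 23, and neither set has the 6 animals needed for a correlation within it.

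**Figure D3:**
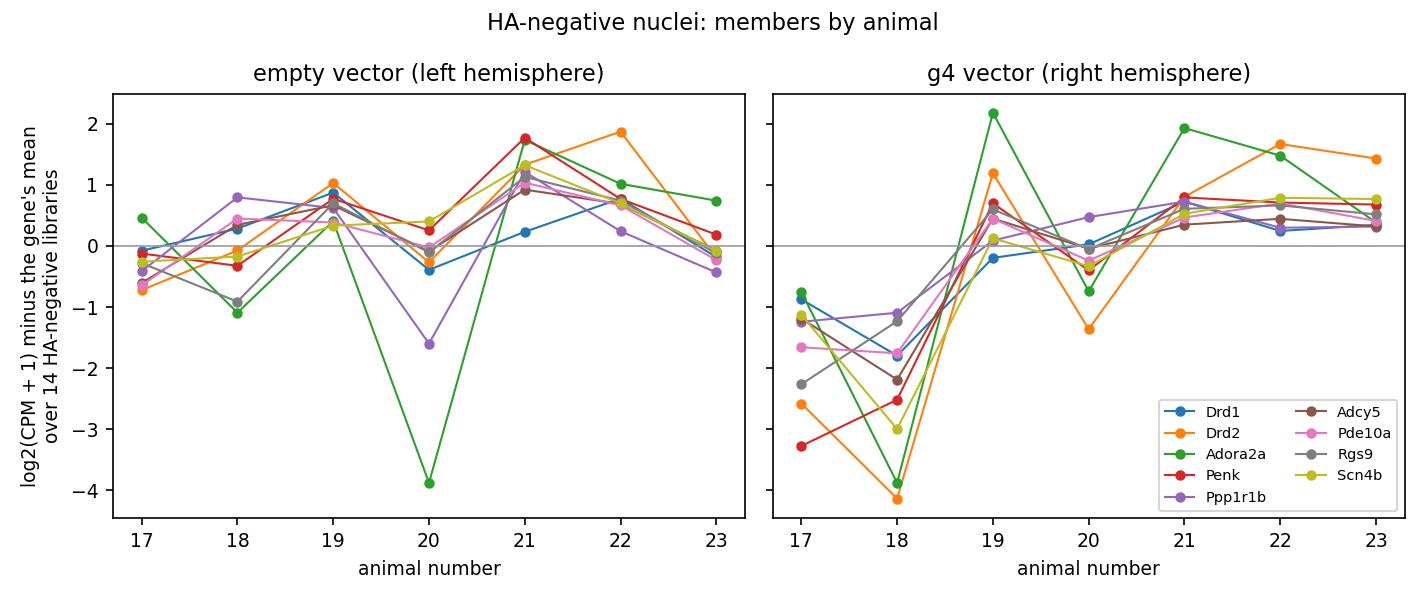
Level of each gene in the HA-negative library of each animal (horizontal axis), with the empty side in the left panel and the g4 side in the right; the vertical axis is log2(CPM + 1) minus that gene's mean over the 14 libraries. Each line is 1 gene and the animals have no order. All 9 genes lie below their own mean in animals 17 and 18 of the g4 side, where they summed to 394.8 and 301.5 CPM.

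The low g4 HA-negative libraries of animals 17 and 18 were also the shallowest of their group, with 501585 and 310408 total counts. In the same animals the empty HA-negative libraries had summed levels of 860.7 and 1364.8 CPM, and that of animal 17 was also the lowest of the empty group while that of animal 18 was its median. The summed cortical excitatory markers ran from 730.8 to 1143.2 CPM over the g4 HA-negative group and were 1080.0 and 1057.0 in animals 17 and 18. The 25 further striatal genes summed to 1347.1 and 1118.0 CPM there, in a group range of 1118.0 to 2657.4. The 7 cortical interneuron markers summed to 625.1 and 403.2 CPM, in a group range of 403.2 to 781.7. The part of depth in the low levels was not tested.

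Many other genes had a profile like that of the 9. Over the 14 HA-negative libraries, each of the 9 genes had r of 0.708 (Adora2a) to 0.959 (Adcy5) with the mean standardized level of the other 8. Among the 8383 genes with a mean of at least 10 CPM there, r with the mean of all 9 had a median of 0.006 and a 95th percentile of 0.601. Among the 10 genes nearest to the 9 were Pde7b (0.943), Klhl13 (0.935), Foxp1 (0.932), Thsd7a (0.931), Kcnab1 (0.921), Rasd2 (0.919), Lamb1 (0.916), Lratd2 (0.915) and Strip2 (0.907). Foxp1, a forkhead transcription factor of striatal and deep cortical neurons, ran from 122.0 to 337.2 CPM over these libraries. Pde7b is a further phosphodiesterase of cyclic AMP, and Rasd2 is a small G protein of the striatum. These are descriptions over libraries that share animals, and the libraries also share depth and scaling.

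Gene lists differed in how near they came. Of the further striatal genes, 15 of the 18 at that level lay above the 95th percentile of all genes, with a median r of 0.744, while Cnr1 was at 0.234. The dopamine, adenosine and cyclic AMP genes had 5 of 31 above it, among them Pde7b and the G protein subunits Gnal (0.809) and Gng7 (0.818), and a median of 0.17. Opioid genes other than Penk had 0 of 6 and the sodium channel partners of Scn4b 0 of 7 above it. Of the cortical excitatory markers, 9 of 11 had a negative r, with a median of -0.359 and Cux2, a factor of upper cortical layers, lowest at -0.557. Syt6 (0.606) and Tle4 (0.52), genes of deep cortical layers, were positive, while the deep-layer genes Fezf2 (-0.359), Tbr1 (-0.151) and Hs3st4 (-0.045) were not. Of the interneuron markers, the GABA genes Slc32a1 (0.603), Gad1 (0.556) and Gad2, which striatal projection neurons express too, were positive, as was Sst (0.184), and Pvalb (-0.176) and Vip (-0.138) were not.

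**Figure D4:**
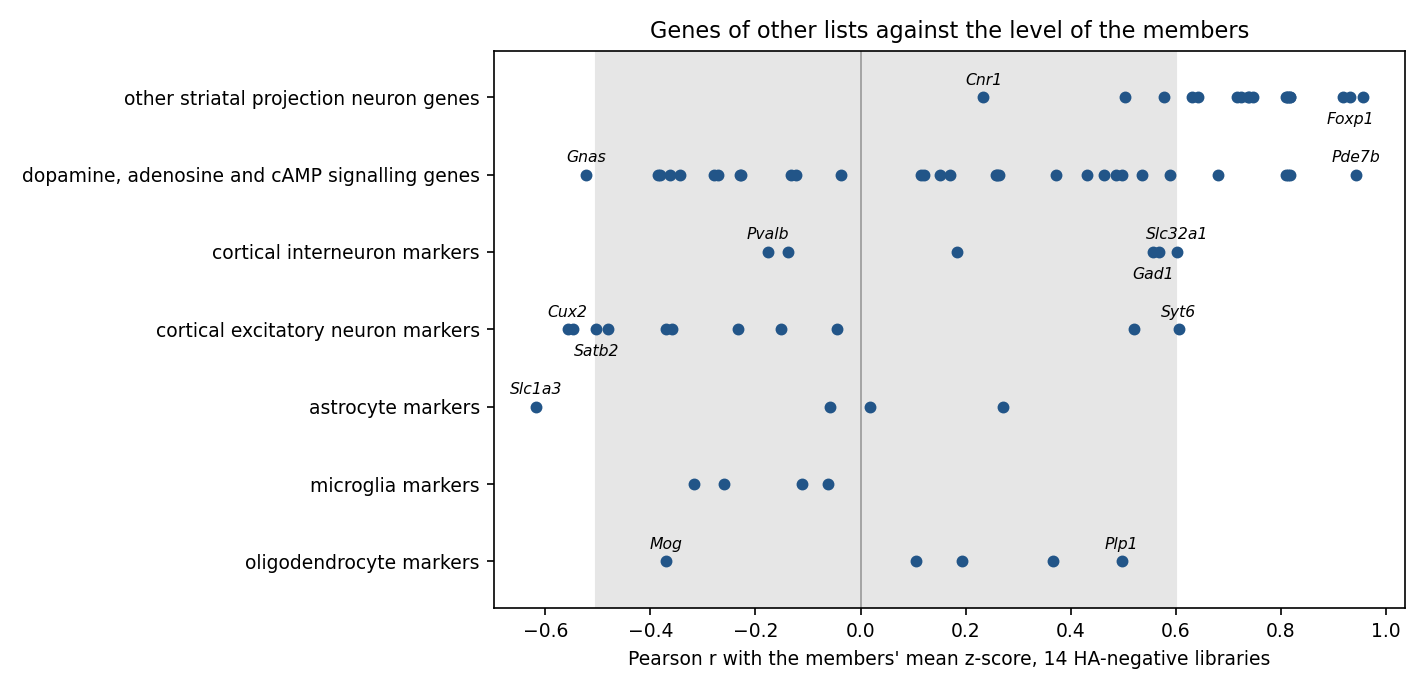
Pearson's r, over the 14 HA-negative libraries, between each gene of a list and the mean standardized level of the 9 genes (horizontal axis), with 1 row per list and 1 point per gene; the grey band spans the 5th to 95th percentiles (-0.504 to 0.601) of 8383 genes and the line marks 0. Further striatal genes lie right of the band in 15 of 18 cases, and 9 of 11 cortical excitatory markers lie left of the line.

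Whether the g4 vector changed these genes was asked within each sorted fraction, a contrast that did not pick them. In HA-negative nuclei all 9 had enough counts, and 0 were called by edgeR's quasi-likelihood test at an adjusted p under 0.05, beside 0% of the 6262 genes tested (0 called; 236 genes were under an unadjusted p of 0.05, of which 0 were among the 9). DESeq2 called 1 gene of all, 0 of them among the 9. The fitted values were lower with g4 in 8 of the 9, and the median was -0.28 on the log2 scale, beside -0.004 over all genes tested. Fitted values of markers of other cell types in the same contrast were as follows: 5 of 5 oligodendrocyte, 2 of 2 oligodendrocyte precursor, 4 of 4 astrocyte and 4 of 4 microglia markers tested had positive values (medians 0.12, 0.52, 0.093 and 0.39), and 5 of 5 interneuron markers negative ones (median -0.18), with 0 called in each list. Of the excitatory markers 7 of 11 had positive values (median 0.095). Their part in the values of the 9 genes was not tested. For 8 of the 9 (not Drd1) the standard error exceeded the difference. Penk had the most negative value, -0.49 ± 0.53 (SE), and was lower with g4 in 6 of 7 animals. Adcy5 was at -0.36 ± 0.36, Scn4b at -0.33 ± 0.42, Pde10a at -0.29 ± 0.40, Drd1 at -0.28 ± 0.26 and Ppp1r1b at -0.21 ± 0.36. Rgs9 (-0.17 ± 0.43) and Drd2 (-0.08 ± 0.66) were nearer 0, and Adora2a was at 0.41 ± 0.69. The adjusted p of edgeR was 0.999 for each of the 9. A p-value of this size does not show that the vectors gave equal levels: for 6 of the 9 genes, the estimate minus 2 standard errors was below -1, a halving. That lower end was -1.56 for Penk and -0.79 for Drd1. These standard errors do not use the pairing of the sides by animal.

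In HA-positive nuclei, labelled as positive for Cas9, only Pde10a, Penk and Adcy5 had enough counts for the test. Pde10a was at 0.48 ± 0.27 on the log2 scale (edgeR, adjusted p = 0.754), Adcy5 at 0.37 ± 0.43 (0.926) and Penk at -0.21 ± 0.49 (0.965). With the g4 library labelled as animal 19 left out, Pde10a was at 0.14 (adjusted p = 0.98), Adcy5 at 0.13 (0.983) and Penk at -0.45 (0.958) by the same edgeR test. None was called, beside 0.0599% of the 5011 genes tested. There were 335 genes under an unadjusted p of 0.05, of which 0 were among these 3, and DESeq2 called 5 genes and 0 of these 3. The value of Pde10a was 278.8 CPM in the library of animal 19 and at most 148.5 in the other 6. The other 6 genes did not pass the filter on low counts; with no filter, and by DESeq2, all 9 were fitted and 0 were called.

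The difference between the vector effects in the 2 fractions could be fitted for 8 genes, and 0 were called by edgeR. Over all genes, 0% of the 7197 tested were called (359 under an unadjusted p of 0.05, of which 0 were among the 8). Rgs9, Drd1, Drd2, Ppp1r1b and Scn4b were below the count filter in HA-positive nuclei and passed it here only with the HA-negative libraries included. The genes were picked for their level in a fraction, so nothing is read from the tests of these named genes. Drd2 had 2 HA-positive counts with empty and 14 with g4, and Ppp1r1b had 6 and 31. DESeq2 called 0 genes and gave 1 of all 9 genes described an unadjusted p under 0.05. Ppp1r1b had the smallest p, with a difference of 1.84 ± 0.92 on the log2 scale (edgeR, adjusted p = 0.979), and it was 0.68 without the HA-positive g4 library of animal 19. Drd2 was at 1.86 ± 1.35, Rgs9 at 0.93 ± 0.99, Pde10a at 0.79 ± 0.52 and Adcy5 at 0.79 ± 0.61. Penk was at 0.28 ± 0.79, Scn4b at 0.04 ± 0.80 and Drd1 at -0.10 ± 0.57. With that library left out, the values of Pde10a (0.42) and Adcy5 (0.50) stayed positive, that of Drd1 was -0.43, and those of Rgs9 (-0.25), Penk (-0.019), Drd2 (-0.63) and Scn4b (-0.69) were negative.

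**Figure D5:**
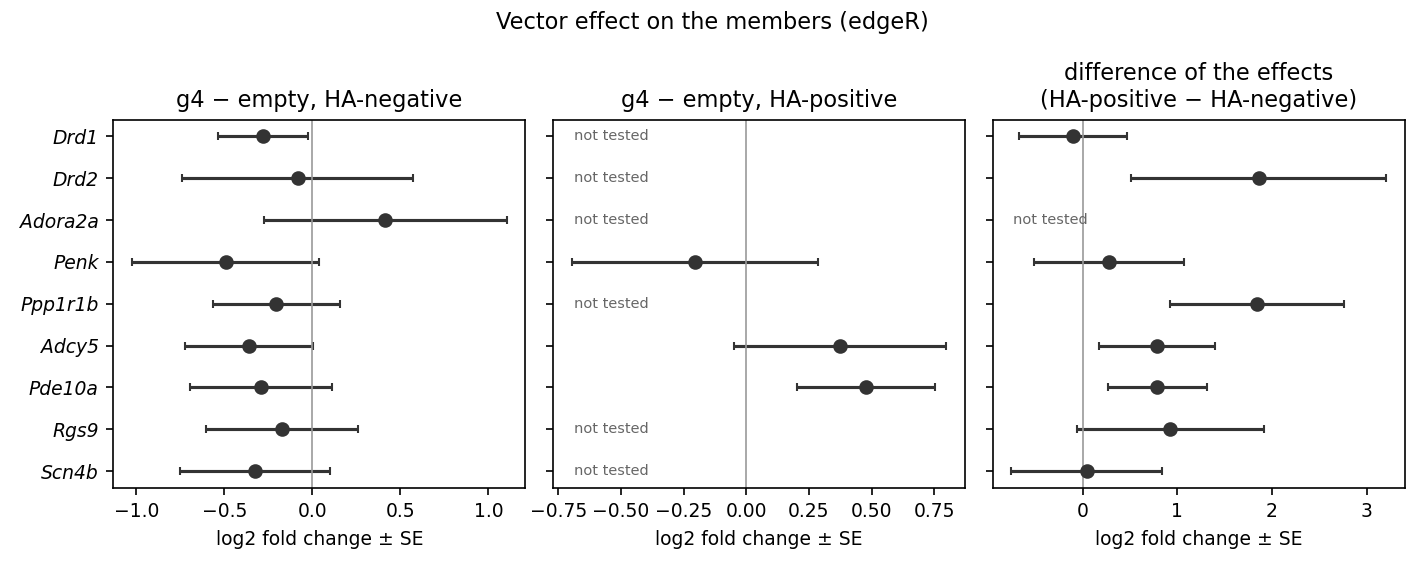
Log2 fold change of g4 against empty (horizontal axis) for each gene with enough counts, in HA-negative nuclei, in HA-positive nuclei and as the difference between them; points are edgeR estimates and bars are ± 1 SE, with genes below the count filter marked as not tested. In HA-negative nuclei the estimates lie between -0.49 (Penk) and 0.41 (Adora2a).

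No gene of the wider pathway was called under g4 either. Over all genes, 0 of the 6262 tested in HA-negative nuclei and 3 of the 5011 tested in HA-positive nuclei (0.0599%) were called. The counts below lie near those shares, so nothing is read from them about the lists. In HA-negative nuclei 0 of the 29 dopamine, adenosine and cyclic AMP genes tested were called, with 16 lower and 13 higher and a median of -0.006 on the log2 scale. Of the 15 further striatal genes tested, 0 were called, 14 were lower and the median was -0.28. Gnal, the G protein subunit that couples Drd1 to the cyclase, was at -0.39 ± 0.16 (edgeR, adjusted p = 0.999). Opioid genes (0 of 5 called) and sodium channel partners of Scn4b (0 of 7) had medians of 0.11 and 0.006. In HA-positive nuclei 0 of 28 pathway genes, 0 of 9 further striatal genes, 0 of 4 opioid genes and 0 of 7 sodium channel genes were called.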

How the data were processed

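Nuclear RNA of sorted nuclei was sequenced in 28 libraries, and groups and animal numbers came from the sample titles. For 3 animals the title number was 1 lower than that of the table column, and the sample descriptions tied columns to samples. Same-numbered libraries come from the same animal per the titles. The correlation of their deviations over genes was -0.053 to 0.064 in HA-positive and -0.011 to 0.143 in HA-negative nuclei.

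Both deposited tables contain raw gene counts, per the labels. The build is GRCm38, per the submitters' processing notes, while the aligner, counter, strand setting and any molecular identifiers are not stated there or in the labels. Cells without a value were read as 0 (832824 of them), and of 41550 entries the 1 without a gene name was dropped. Ensembl identifiers matched GENCODE for 41474 genes and 9 of the 9 described.

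The members and gene lists were chosen with earlier results of these data known. Vector comparisons used the two-sided robust quasi-likelihood test of edgeR 4.0.16 under R 4.3.3, with TMM factors and genes kept by filterByExpr. Benjamini-Hochberg adjustment ran over all genes tested, with calls at an adjusted p under 0.05. Genes were named by rule: all 9, the 10 nearest by correlation (1 is not reported here), and leading members of the lists. Correlations over 7 animals used all 5040 pairings on log2(CPM + 1), for genes with a mean of at least 5 CPM. Scripts were tested on simulated data. Alternatives were DESeq2 1.42.0 as test and as scaling, no filter on low counts, a pseudocount of 5, the animal as a block, and leaving out animals or libraries, among them the 4 HA-positive libraries with fewer than 10000 detected genes.

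With 248612 to 902944 counts per library, 1 count is worth more than 1 CPM, so levels of a few CPM rest on a few counts. The exact intervals treat counts as independent molecules and cover counting error only. If PCR copies were counted, which the labels do not settle, these intervals are too narrow. Nothing in the labels beyond the animal number separates replicates. The main vector tests took the libraries of 1 animal as independent, without pairing by animal. Their p-values and standard errors therefore rest on the spread between libraries. Each standard error is the absolute log2 fold change divided by the square root of the F statistic of the edgeR test. The permutation p-values give the share of pairings of the animals with a correlation at least as large in size.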

Additional observations from a re-analysis of the deposited data

Results flagged for a closer look

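The 9 genes were looked at in 4 groups of 7 libraries each, 36 sets in all, for a highest or lowest library farther from its nearest neighbour than Dixon's 95% limit allows. Chance alone flags about 1 in 20 sets of independent, normally spread values. These sets share libraries and some are mostly 0, so the 8 found are not set against that rate. In 6 of them the library was the g4 HA-positive library of animal 19: Pde10a was 278.8 CPM there and 148.5 in the next library, Rgs9 67.8 against 17.2, and Scn4b 76.5 against 27.1. In the same library Ppp1r1b was 24.1 against 8.07 CPM, Drd2 14.2 against 2.57, and Adora2a 14.2 against 3.48. Drd1, Penk and Adcy5 were not set apart there by this limit. In empty HA-negative nuclei, Penk was 415.3 CPM in animal 21 and 207.3 in the next library. Drd2 was 7.68 CPM in the empty HA-positive library of animal 23 and 0 in the other 6, a difference that rests on 2 counts.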

How the results depend on the processing

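None of the 9 genes was called in any of the 3 vector comparisons under any alternative run, the leave-one-animal fits included (0 to 0 in each comparison). The smallest adjusted p over alternatives was 0.395 (Pde10a, HA-positive nuclei), 0.719 (Drd1, HA-negative nuclei) and 0.477 (Ppp1r1b, difference between fractions). With the animal as a replicate block 0 of the genes described were called in each comparison, so the pairing changed no call, though the difference between fractions for Drd1 went from -0.10 to 0.037. Over all genes, calls in HA-positive nuclei were 3, against 28 with no filter on low counts, 5 by DESeq2 and 1 with the block. Calls in HA-negative nuclei were 0 against 1 by DESeq2, and for the difference between fractions 0 against 3 with no filter. The count of genes wholly lower in HA-positive nuclei was 7 to 9 with the empty vector. With g4 it was 0 to 2 when 1 animal was left out (1 without animal 18, 2 without animal 19), and 2 when the HA-positive g4 library of animal 19 alone was left out.

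Signs that turned were all of uncalled values. With each animal left out in turn, Penk in HA-positive nuclei ran from -0.63 to 0.16 (without animal 18) and Adcy5 from -0.016 (without animal 19) to 0.68. The difference between fractions ran from -0.45 to 1.64 for Rgs9, from -0.094 to 0.56 for Penk and from -0.74 to 0.52 for Scn4b (-0.19 without animal 20), each lowest without animal 19. For Drd1 it ran from -0.73 to 0.55 (without animal 21; 0.095 without animal 23). Without the HA-positive g4 library of animal 19 the values were -0.25 for Rgs9, -0.019 for Penk, -0.63 for Drd2 and -0.69 for Scn4b. DESeq2 gave Scn4b -0.15 (-0.145), and dropping the HA-positive libraries under 10000 genes gave Drd1 0.76. The cause was not tested. Of the single values under alternatives, 402 kept their direction and 15 did not. Depth limits the low genes most: in HA-positive nuclei 6 of the 9 had too few counts for the vector test.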
